A study of Mus musculus with 6 samples.

Results

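Homologous recombination copies an intact sister strand to mend a broken chromosome, so it works mainly in cells that have replicated their DNA. Break sensors and nucleases trim the ends, the BRCA1 and BRCA2 complexes load the recombinase, and its paralogues and helper motors complete the strand exchange. The Fanconi anaemia proteins unhook crosslinked strands for the same machinery, and the ATR and CHEK1 kinases hold the cell cycle while forks are stalled. In activated lymphocytes many of these genes are known to be expressed most in S and G2 phase. Described here are 35 genes of this machinery, with 4 repair genes of neighbouring pathways among them, out of the 26128 genes in the deposited table. They were chosen by name, with earlier results of these data known. All 35 symbols could be matched to an Ensembl identifier of the table, Rad50 under the entry Rad50l.

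The cells were double negative T (DNT) cells, T cells that carry CD3 but lack CD4, CD8 and NK1.1, made in culture by conversion of CD4+ T cells of wild type adult C57BL/6 mice and then sorted. Both groups were stimulated with anti-CD3/CD28 beads for 48 h, the 3 control libraries with beads alone and the 3 IL-33 libraries with beads and IL-33 at 50 ng/ml. IL-33 is a cytokine of the IL-1 family, and the comparison asks which genes of DNT cells change with it. Whether the replicates are separate mice, cultures or only libraries is not given in the sources, so the p values measure only the spread between these libraries, which may be technical. The libraries held 20256342 to 22336050 counts, where 3 counts correspond to 0.134 to 0.148 counts scaled to library size (CPM). This limit covers counting error only. The defining T cell genes Cd3d and Cd3g were at 439 and 706 CPM on average in the control libraries. Cd4 was at 0.934 CPM there, while Cd8a was at 545 CPM, which goes against the CD8-negative sort as far as the transcript is concerned.

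With IL-33 the recombination and Fanconi genes were mostly lower. Of the 35 genes, all of which passed the filter on low counts, 25 fell and 3 rose with an adjusted p under 0.05 (the quasi-likelihood test of edgeR, adjusted by Benjamini-Hochberg over the 14671 genes tested; SE below is the standard error of a log2 fold change), and 7 did not pass. Among all genes tested 13.9% fell and 13.6% rose by the same rule, against 71.4% and 8.57% of the 35. The median log2 fold change of the 35 genes was -0.35, with the middle of their values between -0.54 and -0.14, beside a median of -0.001 over all genes tested. In 25 of the 35 genes all 3 IL-33 libraries lay below all 3 control libraries, a pattern found in 19.5% of all genes tested. Past both the adjusted p threshold and a fold change of 1.5, a log2 fold change of 0.585, were 7 genes, all lower, which were Ung, Rad51c, Fanca, Rad51ap1, Chek1, Fanci and Polq. That is 20% of the 35, where 2.39% of all genes tested were lower past both thresholds and 2.47% higher.

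**Figure D1:**
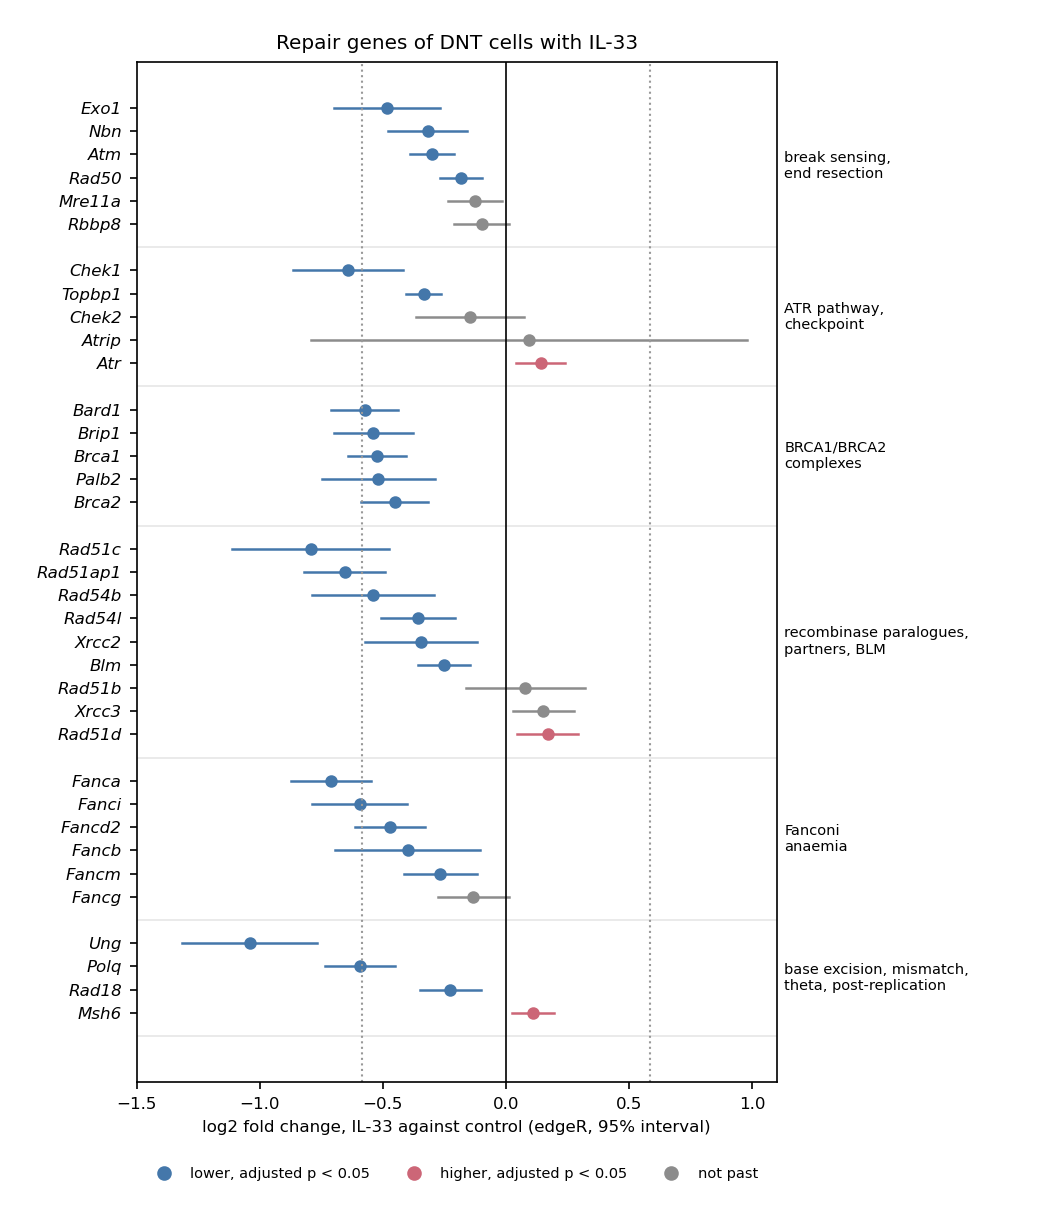
Log2 fold change of the 35 repair genes with IL-33 against control, with 95% intervals from edgeR, grouped by role. Blue points fell and red points rose with an adjusted p under 0.05, grey points did not pass, and dotted lines mark a fold change of 1.5. The points of the BRCA1 and BRCA2 complexes lie between -0.57 and -0.45, while those of the ATR pathway spread from -0.64 to 0.14.

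The summed level of the 35 genes was 1450, 1362 and 1342 CPM in the control libraries and 1167, 1164 and 1152 CPM in the IL-33 libraries. Control replicate 1 stood above the other two controls, and the IL-33 libraries lay close together below all of them. Without control replicate 1 the median log2 fold change of the 35 genes was -0.30 and 25 genes passed the adjusted p threshold in either direction, beside 28 with all libraries. In bulk RNA, fewer cells in the phases that use these genes and less RNA of these genes per cell cannot be told apart.

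Promoter letters are given for the members because 25 of the 35 fell, and because many promoters of S phase genes are known to hold sites for E2F factors. RefSeq windows on GRCm38.p6 could be matched for 27 of the 35 genes, and the 250 bases before each start were searched on both strands. Searched were the E2F letters TTTCCCGC, TTTCGCGC, TTTGCCGC and TTTGGCGC, the CHR letters TTTGAA, which many G2/M promoters hold, and the letters CCAAT bound by NF-Y. E2F letters were present in 5 of the 27 genes (18.5%), beside 3.95% of 10068 tested genes with a window and 2.16% of all 27025 genes with a window. The letters CCAAT were present in 55.6% of the 27 genes and in 40.2% of tested genes, and TTTGAA in 7.41% and 13.1%. Of the 19 genes with a window that fell, 15.8% held E2F letters, 47.4% CCAAT and 10.5% TTTGAA. Of the 6 that did not pass, the shares were 33.3%, 83.3% and 0%, and of the 2 that rose 0%, 50% and 0%. The E2F and CCAAT letters were thus not more frequent in the genes that fell than in those that did not pass. No E2F match shared a base with a match to the other letters. The 5 stretches with E2F letters are shown with the matched letters in capitals, in the direction of transcription, where TTTCCCGC read from the opposite strand appears as GCGGGAAA. They show that the letters occur both in genes that fell (Topbp1, Bard1 and Brca2) and in genes that did not pass the test (Chek2 and Fancg).
Topbp1, chr9:103305172-103305231, plus strand: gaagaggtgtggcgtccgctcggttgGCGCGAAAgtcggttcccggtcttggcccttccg
Bard1, chr1:71103148-71103207, minus strand: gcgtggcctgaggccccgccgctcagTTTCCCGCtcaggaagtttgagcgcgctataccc
Brca2, chr5:150522427-150522486, plus strand: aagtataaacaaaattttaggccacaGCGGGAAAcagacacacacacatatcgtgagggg
Chek2, chr5:110839805-110839864, plus strand: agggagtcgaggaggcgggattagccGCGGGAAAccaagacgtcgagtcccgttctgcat
Fancg, chr4:43010320-43010379, minus strand: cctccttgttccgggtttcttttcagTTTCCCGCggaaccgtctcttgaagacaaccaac

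All 7 genes past both thresholds had a window, and the E2F letters were in none of these 7, which says only that these letters are not in these windows. For Chek1 and Fanci the window lies wholly inside the GENCODE span of the gene, as does 1 of the 2 windows of Rad51c. Bases before the GENCODE start of Chek1 and Fanci were thus not searched. Of the 7 genes only 2, Fanca and Rad51ap1, held CCAAT letters (28.6%, beside 40.2% of tested genes). The last 150 bases before the start of these 2 are shown with those letters, or ATTGG on the opposite strand, in capitals. Fanca has a pair of matches in the 50 bases nearest the start, while the second match of Rad51ap1 lies before the stretch shown.
Fanca, chr8:123318577-123318726, minus strand: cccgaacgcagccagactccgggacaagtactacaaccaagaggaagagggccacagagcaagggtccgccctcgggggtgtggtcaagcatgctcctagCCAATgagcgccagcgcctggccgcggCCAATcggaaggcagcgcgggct
Rad51ap1, chr6:126939588-126939737, minus strand: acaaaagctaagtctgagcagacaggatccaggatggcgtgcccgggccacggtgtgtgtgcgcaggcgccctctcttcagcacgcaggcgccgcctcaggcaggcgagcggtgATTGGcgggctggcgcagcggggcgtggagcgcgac

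Among the genes that sense breaks and trim their ends, 4 of 6 fell and 2 did not pass, with a median log2 fold change of -0.24. Exo1, an exonuclease that resects ends over long distances, was at 16.0, 19.2 and 13.96 CPM in the control libraries and at 12.5, 11.0 and 11.7 CPM in the IL-33 libraries. The groups did not overlap, and the log2 fold change was -0.48 (SE 0.108, adjusted p = 1.9e-04 in edgeR). Rad50, a subunit of the MRE11 complex that binds and tethers ends, fell less, from 100.4, 94.7 and 90.2 CPM to 83.6, 83.7 and 84.3 CPM. Its log2 fold change was -0.18 (SE 0.0426, adjusted p = 3.9e-04), and per length it had the highest level of this group, at 18.5 ± 1.00 CPM per kb of exon in the control libraries (SD, n = 3). Nbn, the subunit that recruits ATM, fell from 25.7 ± 1.30 to 20.6 ± 1.02 CPM, and Atm, the kinase that signals double strand breaks, from 102 ± 8.14 to 82.7 ± 3.80 CPM (SD of 3 libraries per group), with log2 fold changes of -0.32 and -0.30. Mre11a, the nuclease of the same complex, did not pass (log2 fold change -0.13, adjusted p = 0.0744), although its 3 IL-33 libraries lay below the controls. The smallest difference in the group was in Rbbp8, which encodes the resection factor CtIP. Rbbp8 was at 53.4, 50.1 and 47.9 CPM without IL-33 and at 46.0, 48.5 and 46.9 CPM with it, so that the groups overlapped (log2 fold change -0.10, 95% interval -0.21 to 0.014, adjusted p = 0.20).

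The ATR pathway split. Chek1, the kinase that ATR activates to stop the cycle, was at 19.9, 15.6 and 15.1 CPM in the control libraries and at 10.8, 9.16 and 12.4 CPM in the IL-33 libraries. All IL-33 libraries lay below all controls, and the log2 fold change was -0.64 (SE 0.112, adjusted p = 2.7e-06 in edgeR). The gene (ENSMUSG00000032113) lies on chromosome 9 between 36708482 and 36727065, in GENCODE M21 and build GRCm38 as for all genes placed here. Topbp1, the activator of ATR, had the highest level per length of all 35 genes, at 39.6 ± 2.11 CPM per kb in the control libraries and 31.4 ± 0.902 with IL-33 (SD of 3 libraries per group). It fell from 219, 198 and 204 CPM to 168, 159 and 165 CPM, a log2 fold change of -0.33 (SE 0.0362, adjusted p = 3.1e-13). The gene of the ATR kinase itself was among the 3 that rose, from 63.3, 60.7 and 56.6 CPM to 63.6, 69.8 and 65.6 CPM, where the groups were separated by the narrow gap between 63.3 and 63.6. The log2 fold change of Atr was 0.14 (SE 0.0502, adjusted p = 0.0264). The rise of Atr was lost when control 2 (adjusted p = 0.052), control 3 (0.206) or IL-33 replicate 2 (0.192) was left out, in DESeq2 (0.106) or with library totals alone as the scale (0.0561). Chek2, the kinase downstream of ATM, did not pass (log2 fold change -0.14, adjusted p = 0.36). Atrip, the partner that brings ATR to single strands, was at 0.613, 1.18 and 0.228 CPM without IL-33 and 0.558, 0.859 and 0.720 CPM with it. That is the lowest level per length of the 35 genes. The interval of Atrip, from -0.79 to 0.98 on the log2 scale, excludes neither a rise nor a fall of 1.5-fold.

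All 5 genes of the BRCA1 and BRCA2 complexes fell, each with IL-33 libraries below all controls, and the group had the narrowest range of the 6 groups, with a median log2 fold change of -0.52. Bard1, the partner with which BRCA1 forms a ubiquitin ligase, was at 39.0, 39.6 and 35.7 CPM in the control libraries and at 25.7, 25.9 and 25.3 CPM in the IL-33 libraries (log2 fold change -0.57, SE 0.069, adjusted p = 1.5e-11 in edgeR). Brca1 fell from 57.1, 52.2 and 54.3 CPM to 38.8, 38.9 and 36.1 CPM, a log2 fold change of -0.52 (SE 0.0586, adjusted p = 8.7e-13). Brca1 also had the highest level per length of the group, at 8.30 ± 0.377 CPM per kb in the control libraries and 5.78 ± 0.240 with IL-33 (SD of 3 libraries per group). Brca2, which loads the recombinase on single strands, showed the smallest fall, from 37.6, 35.4 and 36.8 CPM to 26.1, 28.6 and 25.6 CPM (log2 fold change -0.45, SE 0.0691, adjusted p = 5.1e-08). Brip1, a helicase that binds BRCA1, fell from 27.5 ± 1.22 to 19.0 ± 1.29 CPM and Palb2, the bridge between BRCA1 and BRCA2, from 13.8 ± 1.32 to 9.62 ± 0.932 CPM (SD of 3 libraries per group). The 5 genes stayed under a fold change of 1.5 in this fit, so none was past both thresholds.

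Of the 9 genes of recombinase paralogues, partners and the BLM helicase, 6 fell, 1 rose and 2 did not pass. Rad51c, a paralogue found in both paralogue complexes, fell most and had low counts, at 142, 164 and 137 counts in the control libraries and 96, 77 and 88 counts in the IL-33 libraries. In CPM these were 6.69, 8.07 and 6.25 against 4.46, 3.67 and 3.96, without overlap, and the log2 fold change was -0.79 (SE 0.162, adjusted p = 3.9e-05 in edgeR). Rad51c (ENSMUSG00000007646) lies on chromosome 11 from 87376645 to 87404954. Rad51ap1, a DNA binding partner of the recombinase on chromosome 6 from 126923050 to 126939587, fell from 28.0, 28.0 and 25.8 CPM to 17.3, 16.7 and 17.8 CPM (log2 fold change -0.66, SE 0.0825, adjusted p = 9.1e-11). The translocases Rad54l and Rad54b, which remodel the recombinase filament, fell from 31.1 ± 2.67 to 24.3 ± 1.91 CPM and from 12.3 ± 2.10 to 8.47 ± 0.893 CPM, and Blm, the helicase that dissolves crossed strands, fell from 63.9 ± 4.50 to 53.7 ± 2.77 CPM (SD of 3 libraries per group). Rad54l shares 1184 exon bases with Lrrc41 on the other strand and Rad54b shares 2068 with Fsbp on its own strand, so their values are uncertain, since it is not given whether reads were counted by strand. Lrrc41 had a log2 fold change of -0.064 (adjusted p = 0.592) and Fsbp one of -1.15 (adjusted p = 0.0019).

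The other paralogues did not follow Rad51c. Rad51d rose from 35.4, 37.8 and 36.9 CPM to 42.3, 40.6 and 40.9 CPM, without overlap (log2 fold change 0.17, SE 0.0627, adjusted p = 0.0323 in edgeR). This call was lost when control 1 (adjusted p = 0.119), control 3 (0.0649) or IL-33 replicate 1 (0.108) was left out, in DESeq2 (0.0831) or with library totals alone (0.0595). Xrcc3, the partner of RAD51C in the smaller complex and the paralogue with the highest level per length, was at 38.5, 38.1 and 37.9 CPM without IL-33 and at 41.0, 44.4 and 41.9 CPM with it, which did not overlap but did not pass (adjusted p = 0.0572). Of the alternative fits 1, with libraries scaled by the upper quartile, put Xrcc3 past the threshold (adjusted p = 0.0392). Rad51b was at 8.62, 10.8 and 10.3 CPM without IL-33 and 10.5, 10.6 and 10.3 CPM with it, and the groups overlapped (log2 fold change 0.078, 95% interval -0.16 to 0.32, adjusted p = 0.688). Xrcc2 fell from 13.1 ± 0.412 to 10.3 ± 1.36 CPM (SD of 3 libraries per group, log2 fold change -0.35, adjusted p = 0.0154). The call of Xrcc2 was lost without control replicate 1 (adjusted p = 0.0556) or IL-33 replicate 1 (0.148) and in DESeq2 (0.0541).

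Fanconi anaemia genes fell in 5 of 6 cases, and 1 did not pass, with a median log2 fold change of -0.43. Fanca (ENSMUSG00000032815, chromosome 8 from 123268300 to 123318576), a scaffold of the core complex, was at 30.5, 28.1 and 27.3 CPM in the control libraries and 18.4, 15.9 and 18.2 CPM in the IL-33 libraries. Every IL-33 library lay below every control, and the log2 fold change was -0.71 (SE 0.0822, adjusted p = 3.2e-12 in edgeR). Fanci (ENSMUSG00000039187, chromosome 7 from 79391929 to 79450264) and Fancd2 encode the pair of proteins that the core complex marks with ubiquitin. Fanci fell from 21.1, 20.03 and 19.3 CPM to 14.04, 13.9 and 12.02 CPM, a log2 fold change of -0.59 (SE 0.0964, adjusted p = 2.6e-07), and Fancd2 fell from 34.8 ± 1.68 to 25.1 ± 2.19 CPM (SD of 3 libraries per group, log2 fold change -0.47). Fanca shares 920 exon bases with Zfp276 and Fanci shares 921 with Polg, both on the other strand, and the 2 neighbours had log2 fold changes of -0.057 and -0.089 that did not pass (adjusted p = 0.715 and 0.284). Fancm, the translocase that anchors the core complex, fell from 29.9 ± 1.06 to 24.9 ± 2.20 CPM and Fancb, a subunit of that complex on the X chromosome, from 7.73 ± 1.04 to 5.86 ± 1.16 CPM (SD of 3 libraries per group, adjusted p = 0.0034 and 0.0333). Fancm lost its call without IL-33 replicate 3 (adjusted p = 0.061). Fancb, whose groups overlapped, lost it when control 1 (0.128), control 2 (0.132), IL-33 replicate 1 (0.184) or IL-33 replicate 3 (0.145) was left out, in DESeq2 (0.127) and in limma-voom (0.0514). Fancg, another core subunit, was at 28.8, 31.8 and 29.8 CPM without IL-33 and at 26.5, 26.1 and 29.8 CPM with it and did not pass (log2 fold change -0.13, 95% interval -0.28 to 0.011, adjusted p = 0.171).

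**Figure D2:**
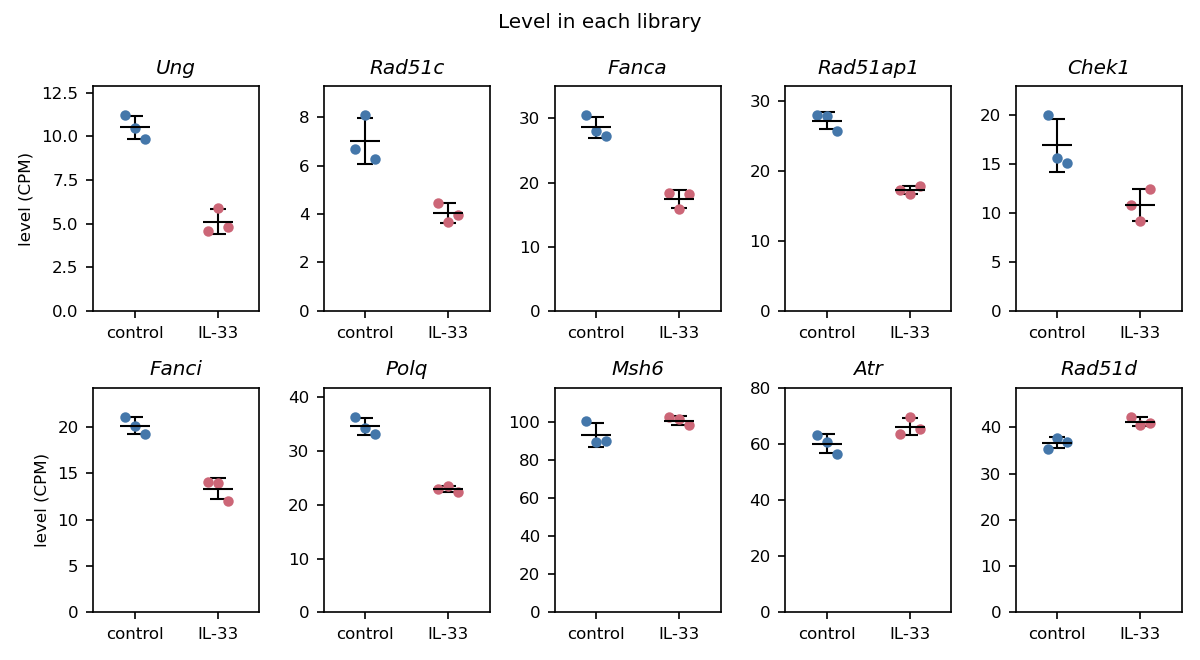
Level in CPM in each control (blue) and IL-33 (red) library for the 7 genes past both thresholds and the 3 genes that rose past the adjusted p threshold alone. Dots are libraries, and bars give the mean and SD of 3 libraries. In the 7 falls, such as Ung from about 10.5 to 5.11 CPM on average, the groups do not overlap. For Chek1 the gap between 12.4 and 15.1 CPM is smaller than the spread of its controls, from 15.1 to 19.9 CPM. Atr, Rad51d and Msh6 differ by little.

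The largest change of the 35 genes was in Ung, the uracil glycosylase that starts base excision and that in B cells also processes the uracils of antibody gene diversification. Ung (ENSMUSG00000029591, chromosome 5 from 114130386 to 114139323) had 238, 213 and 216 counts in the control libraries and 99, 124 and 107 counts in the IL-33 libraries, or 11.2, 10.5 and 9.86 CPM against 4.60, 5.91 and 4.82 CPM. The highest IL-33 library was far below the lowest control, and the level fell by 51.4% (log2 fold change -1.04, SE 0.138, adjusted p = 6.1e-10 in edgeR). Ung was the 1 gene of the 35 whose fall passed a test against a fold change of 1.5 itself (adjusted p = 0.0214 in edgeR's glmTreat). Polq, the polymerase theta of an end joining pathway that serves cells with resected breaks, fell from 36.4, 34.3 and 33.3 CPM to 22.9, 23.6 and 22.4 CPM without overlap (log2 fold change -0.59, SE 0.072, adjusted p = 2.1e-11). Polq (ENSMUSG00000034206) lies on chromosome 16 from 37011786 to 37095417. Rad18, the ubiquitin ligase of post-replication repair, fell less, from 42.1 ± 2.71 to 36.0 ± 1.1 CPM (SD of 3 libraries per group, log2 fold change -0.23, adjusted p = 0.0035). Msh6, the mismatch recognition subunit with the highest level per length of this group, was at 100.8, 89.7 and 90.1 CPM without IL-33 and at 103, 102 and 98.5 CPM with it. The groups of Msh6 overlapped and the log2 fold change was 0.11 (SE 0.0425, adjusted p = 0.0415). That rise was lost when control 2 (adjusted p = 0.22), control 3 (0.227), IL-33 replicate 1 (0.133) or IL-33 replicate 2 (0.0782) was left out, and in DESeq2 (0.145), in limma-voom (0.0675), with library totals alone (0.0938) and without the filter on low counts (0.062).

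Ratios between genes of 1 library do not depend on how libraries are scaled. In each group the gene with the lowest log2 fold change was set against the one with the highest, as a description without a test. The pairs were chosen by these same fold changes, so lower ratios with IL-33 follow from the choice. Groups that do not overlap are therefore no separate evidence. Per 100 counts of Msh6 there were 11.1, 11.7 and 10.9 counts of Ung in the control libraries and 4.47, 5.83 and 4.89 in the IL-33 libraries. Per 100 counts of Rad51d there were 18.9, 21.4 and 17.0 counts of Rad51c without IL-33 and 10.6, 9.05 and 9.68 with it. Chek1 had 31.5, 25.7 and 26.6 counts per 100 counts of Atr without IL-33 and 17.0, 13.1 and 18.9 with it. In these pairs, and for Fanca against Fancg with 88.3 to 106 against 60.8 to 69.3 and for Exo1 against Rbbp8 with 29.2 to 38.3 against 22.6 to 27.1, the groups did not overlap. Bard1 against Brca2 gave 97.0 to 112 counts per 100 without IL-33 and 90.3 to 98.8 with it, which overlapped.

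The rest of the same pathways was lower by a smaller median. Of 61 other recombination, Fanconi and checkpoint genes 25 fell (41.0%) and 4 rose with an adjusted p under 0.05, with a median log2 fold change of -0.16. The largest fall was in Rmi2, a subunit of the complex of BLM, from 7.02 ± 0.494 to 4.39 ± 0.365 CPM (log2 fold change -0.68, adjusted p = 3.2e-04 in edgeR), and the largest rise in Sfr1, a helper of the recombinase, from 79.7 ± 0.389 to 93.7 ± 2.48 CPM (SD of 3 libraries per group, log2 fold change 0.23, adjusted p = 3.7e-06). Rmi2 and Clspn, the adaptor through which ATR reaches CHEK1, were the 2 genes of this list past both thresholds. Trp53bp1, which encodes the 53BP1 protein that holds back resection and was picked after its values had been seen, was among the 4 that rose, from 69.9 ± 1.46 to 81.1 ± 2.93 CPM (SD of 3 libraries per group, adjusted p = 5.0e-05).

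Other repair pathways were read against the 27.5% of all genes tested that passed in either direction. Of 12 non-homologous end joining genes 1 passed, and it was Prkdc, the DNA-dependent kinase, from 119 ± 6.99 to 99.6 ± 5.12 CPM (SD of 3 libraries per group, log2 fold change -0.26, adjusted p = 4.8e-07 in edgeR). Of 19 nucleotide excision genes 4 passed, all of them higher, the most Xpa, a damage verification factor, from 8.45 ± 0.512 to 11.1 ± 0.218 CPM (SD of 3 libraries per group, log2 fold change 0.39, adjusted p = 0.0109, or 0.0591 without control replicate 2). Of 13 post-replication and translesion genes 2 fell and 1 rose, with Zranb3, a fork remodeller, at a log2 fold change of -0.47 and Polk, a translesion polymerase, at 0.16 (adjusted p = 0.0016 for both). Of 23 other base excision and mismatch genes 4 fell and 2 rose, and the 6 included 4 further DNA glycosylases that moved in opposite directions. Neil3 fell from 49.3 ± 2.56 to 31.4 ± 2.14 CPM (log2 fold change -0.65, adjusted p = 1.6e-15) and Mbd4 from 20.1 ± 1.79 to 13.4 ± 1.09 CPM, both past both thresholds like Ung, while Neil1 rose from 17.8 ± 2.06 to 23.1 ± 0.298 CPM and Neil2 from 14.7 ± 2.06 to 21.1 ± 1.14 CPM (SD of 3 libraries per group, log2 fold change of Neil2 0.52, adjusted p = 3.6e-06). Mbd4 and Neil1 were named after their values had been seen.

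**Figure D3:**
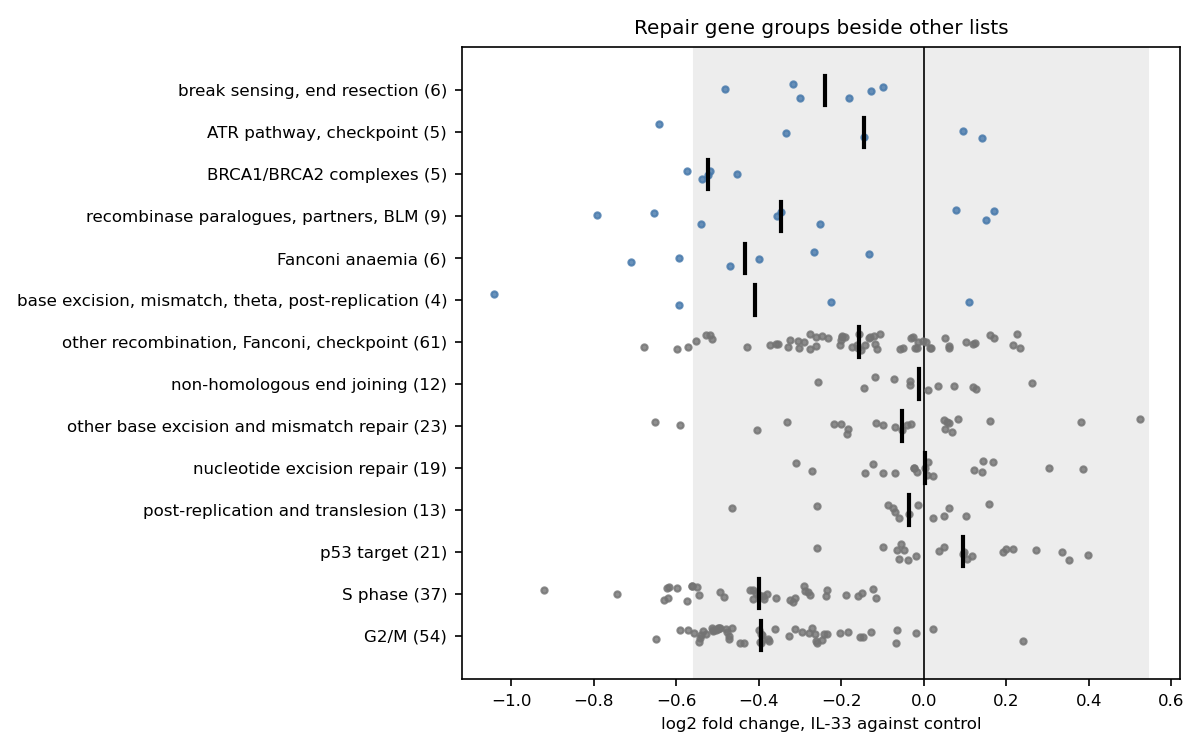
Log2 fold change with IL-33 against control for each tested gene of the 6 role groups (blue) and of 8 other lists (grey), with the number of genes in brackets and a black bar at the median. The shaded band holds the middle of all genes tested, from the 5th to the 95th percentile (-0.56 to 0.54). The recombination groups lie to the left with the S phase and G2/M lists, at medians of -0.40 and -0.39, while end joining and nucleotide excision genes centre near 0.

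Among target genes of p53, the factor that ATM and CHEK2 activate after damage, 6 of 21 rose (28.6%, beside 13.6% of all genes tested) and 15 did not pass. The median log2 fold change of the 21 genes was 0.094, and 13 had a positive and 8 a negative value. Cdkn1a, the inhibitor of cyclin kinases known as p21, rose from 305 ± 5.54 to 401 ± 10.7 CPM (SD of 3 libraries per group, log2 fold change 0.40, SE 0.030, adjusted p = 1.8e-21 in edgeR). Mdm2, the ligase that degrades p53, rose from 189, 190 and 190.0 CPM to 238, 245 and 234 CPM (log2 fold change 0.33, SE 0.0336, adjusted p = 7.1e-15). In both genes every IL-33 library lay above every control. The others that rose were Ccng1, Bbc3, Sesn1 and Trp53inp1, with log2 fold changes from 0.094 for Trp53inp1 to 0.35 for Sesn1.

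RNA markers of dividing cells moved with the repair genes. By flow cytometry the paper reported the opposite direction in protein, with more Ki67-positive DNT cells and higher Survivin after IL-33. Here Mki67, the gene of Ki67, had a log2 fold change of -0.54 and Birc5, the gene of Survivin, one of -0.47. Why RNA and protein differ was not tested. Of 37 S phase genes, none of them among the 35, 34 fell and the others did not pass, and their summed level was 3329, 3234 and 3102 CPM without IL-33 and 2465, 2387 and 2436 CPM with it. Of 54 G2/M genes 49 fell and 1 rose, with sums of 6206 to 6717 CPM without IL-33 and 5079 to 5132 CPM with it. The largest fall of the S phase list was in Fen1 (log2 fold change -0.92, adjusted p = 0.0283, at 1.73 and 0.909 CPM), which was lost without control replicate 3 (adjusted p = 0.189) or IL-33 replicate 2 (0.127) and in DESeq2 (0.0897). In the G2/M list Pimreg fell most (-0.65) and Psrc1 was the 1 gene that rose (0.24). When the same test was run with the summed S phase counts of each library as its scale, so that a gene that fell with the S phase genes came out near 0, 6 of the 35 genes were lower, 12 higher and 17 did not pass at an adjusted p of 0.05. On this scale 1.44% of all genes tested were lower and 68.9% higher, and the median of all genes was 0.41 while that of the 35 genes was 0.062.

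The 6 genes lower even relative to the S phase genes were Ung (log2 fold change -0.63, SE 0.144, adjusted p = 2.4e-05), Rad51c (-0.39), Fanca (-0.30), Rad51ap1 (-0.25), Polq (-0.19) and Bard1 (-0.17). Ung had 33.7, 32.4 and 31.8 counts per 10000 S phase counts without IL-33 and 18.7, 24.8 and 19.8 with it, without overlap. The 12 that were higher on this scale were led by Rad51d (0.57), Xrcc3 (0.56), Atr (0.55) and Msh6 (0.52). These and Rad51b (0.48) stood above the median of all genes. Brca1, Brca2, Brip1, Palb2, Exo1, Fancd2, Fanci, Chek1 and Topbp1 were among the 17 that did not pass, with values from -0.23 for Chek1 to 0.073 for Topbp1. With the G2/M genes as the scale 10 genes were lower (2.13% of all genes tested) and 9 higher (62.0%), and the added lower genes were Brca1, Brip1, Chek1 and Fanci.

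**Figure D4:**
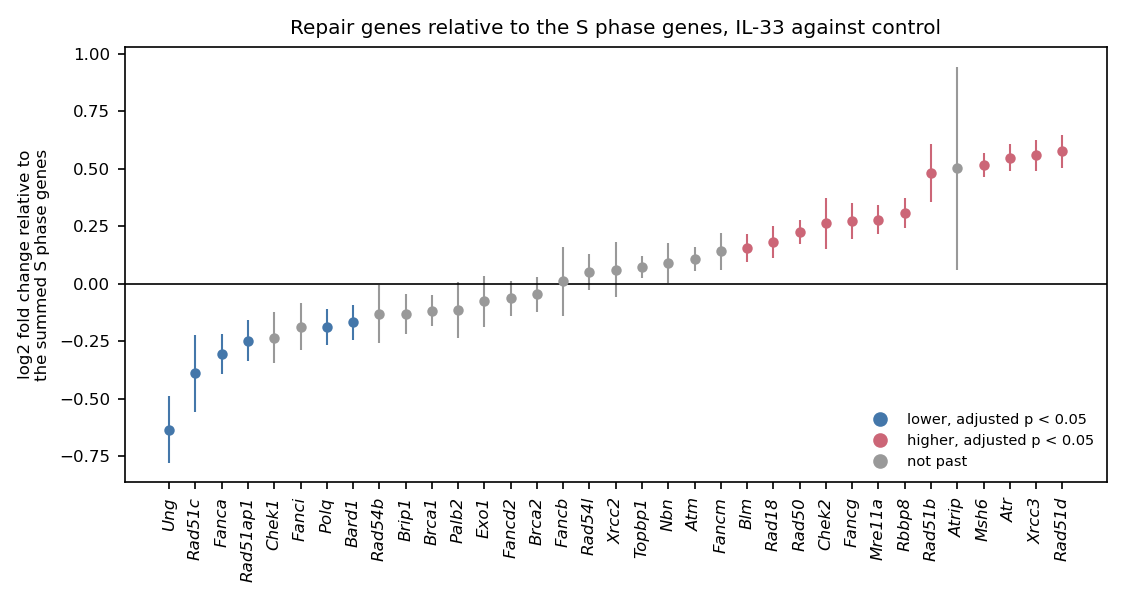
Log2 fold change of the 35 repair genes with IL-33 against control when each library is scaled to its summed counts of 37 S phase genes, with standard errors from edgeR, in order of size. Blue points are lower and red points higher with an adjusted p under 0.05. Ung lies lowest at -0.63 and Rad51d highest at 0.57. The genes of the BRCA1 and BRCA2 complexes all lie below 0, from -0.17 for Bard1, which passed, to -0.045 for Brca2.

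Cell type markers in part moved with the groups. The 12 T cell genes summed to 2904 to 3079 CPM without IL-33 and to 2940 to 3057 CPM with it, while 4 of them fell (Cd2, Cd5, Lck and Lat), Cd3g rose and 7 did not pass. All 4 genes of the sorting gates changed, and their sum was 575 to 608 CPM without IL-33 and 436 to 453 CPM with it. Cd8a fell from 545 to 400 CPM on average (log2 fold change -0.45, adjusted p = 2.4e-26 in edgeR), and Cd4 (-1.31) and Klrb1c, the gene of NK1.1, also fell, from 0.934 to 0.373 CPM and from 33.5 to 25.6 CPM, while Cd8b1 rose from 9.69 to 16.3 CPM. Of 12 dendritic and myeloid genes analysed, which summed to 102 to 106 CPM without IL-33 and 80.2 to 86.7 CPM with it, 7 passed the filter, 2 fell and 2 rose. The log2 fold changes of these 7 ran from -1.07 to 0.88 with a median of 0.11, and 5 were positive and 2 negative. The lower sum therefore does not describe most of these genes. Itgax, which encodes CD11c, fell from 54.6 ± 2.07 to 26.0 ± 1.59 CPM (SD of 3 libraries per group), and Flt3, Csf1r, Lyz2, Adgre1 and H2-Aa were under 1 CPM in both groups. Of 7 mast cell and basophil genes, with sums of 38.4 to 41.7 and 26.6 to 31.5 CPM, 2 fell, and Fcer1a, Tpsb2, Ms4a2 and Gata2 were under 1 CPM. Of the 3 B cell genes tested the lowest adjusted p in edgeR was 0.0542 (Ighm, log2 fold change 0.28). The part of these cells in the changes of the repair genes was not tested.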

How the data were processed

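RNA of 6 libraries of DNT cells was sequenced by the authors, who deposited raw counts of reads per gene without normalization. They also deposited 1 column of signal, a mean of normalized counts over libraries, which was not used. The submitters' processing notes name Bowtie 0.12.2 and the genome build mm8 without their role. Which program counted the reads, and whether it used the strand, is not given in the sources used here. Labels and paper differ on the library kit. Of the 26128 identifiers 26086 matched GENCODE M21, the source of symbols, positions and exon lengths.

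Low genes were removed by filterByExpr of edgeR (at least 10 counts, total of at least 15), which kept 14671 genes and removed 0.11% of the counts, scaled by TMM and compared with the robust quasi-likelihood test, two-sided, with Benjamini-Hochberg adjustment. The thresholds are those of the paper. Levels are CPM, per kb over the exons of the basic transcript set. The square root of the common dispersion was 0.0468. Totals of 20256342 to 22336050 counts set the precision, and intervals cover the spread between libraries. A permutation of 3 against 3 libraries cannot go below an exact p of 0.1 and was not used. R 4.3.3, edgeR 4.0.16, limma 3.58.1 and DESeq2 1.42.0 were used.

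The 35 members and all lists were chosen with earlier results of these data known. Values in every library were given for members past both thresholds and, in each role group, for those with the largest and smallest change and the highest level per length. From each other list the largest rise and fall past the adjusted p threshold, with Cdkn1a and Mdm2, were named. Clspn, Mki67, Birc5, single cell type markers and the p53 targets beside Cdkn1a and Mdm2 were named after their values had been seen. The lists were non-homologous end joining, base excision and mismatch, nucleotide excision, post-replication, p53 target, S phase and G2/M genes, other recombination genes and cell type markers, and 5 genes stood in more than 1 of them. Scaling to the S phase or G2/M genes was chosen after seeing the data. Alternatives were DESeq2, limma-voom, other scalings and filters, a replicate block, leaving out each library and a test against the fold change threshold. On simulated data for this comparison edgeR recovered 93% of genes changed 1.5-fold and 100% of those changed 2-fold, with 12 false calls among 14469 genes. Libraries of 1 group differed beyond sampling noise (chi-square per gene 2.64 to 3.67).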

Additional observations from a re-analysis of the deposited data

How the results depend on the processing

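Of the 25 genes that fell, 22 stayed past the adjusted p threshold in the same direction in each of 14 alternative fits, and the exceptions were Xrcc2, Fancb and Fancm. Of the 3 rises (Atr, Rad51d and Msh6) 0 did so. No called gene changed sign. The number of the 35 genes past the adjusted p threshold ran from 23 in DESeq2 to 29 with upper quartile scaling, beside 28 in the report, and from 24 to 26 with 1 library left out. The number past both thresholds ran from 5 to 10 with 1 library left out, and Ung, Rad51c, Fanca and Rad51ap1 were among them in all 14 fits. The median log2 fold change of the 35 genes ran from -0.36 to -0.30 with 1 library left out. Tested against the fold change threshold itself, 1 of the 35 genes and 113 of all genes passed, beside 7 and 714 past both thresholds. Relative to the G2/M genes 10 genes were lower, beside 6 relative to the S phase genes, and with 1 library left out 4 to 7 were lower and 10 to 13 higher relative to the S phase genes.

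Replicate numbers shared by the groups left no visible common effect. The correlations of same-numbered libraries' deviations from their group means were 0.0116, 0.0032 and 0.0107. Such values cannot show whether the libraries were paired by design. With the replicate number as a block 28 of the 35 genes passed, 7 of them past both thresholds, 666 of all genes were past both and the median of the 35 genes was -0.35, and 129 genes of the other lists passed, as without it. Depth limits what can be said of Atrip, with 5 to 24 counts a library.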
